A study of Mus musculus with 12 samples.

Results

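The ADAM sheddases described here are 6 genes, Adam10, Adam12, Adam15, Adam17, Adam19 and Adam33, chosen by name from the 420 genes of a targeted RNA panel for mouse extracellular matrix (ECM) and cell adhesion genes. The choice was made with earlier results of these data known. The panel lists 15 other ADAM family genes, which serve below as the nearest comparison. ADAM proteins are membrane-anchored metalloproteinases with a prodomain, a zinc-dependent protease domain and a disintegrin domain. Sheddases among them cut other membrane proteins just outside the membrane and so release growth factors, cytokines and the outer parts of adhesion molecules and receptors. In fibroblasts and stellate cells, ADAM12 is known as a gene of the activated, myofibroblast state, and transforming growth factor β1 (TGF-β1) is the cytokine classically used to bring that state about.

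The cells were mouse pancreatic stellate cells (PSCs), the fibroblast-like cells of the pancreas that lay down collagen when activated. By the study's methods they came from the pancreas of 1 male mouse on a C57BL/6 background carrying floxed PKN2 alleles and a tamoxifen-inducible Cre recombinase expressed from Rosa26, and were immortalized with SV40 large T antigen. PKN2, a serine/threonine protein kinase, was deleted by 4-hydroxytamoxifen to give PKN2 KO cells. WT cells did not carry the deletion, and whether they received the carrier of that drug is not given in the sources used here. Cells of both genotypes were then given TGF-β1 at 5 ng/ml, or its vehicle, and RNA was taken 72 h later. Each of the 4 groups (WT vehicle, KO vehicle, WT TGF-β1 and KO TGF-β1) had 3 libraries, labelled A, B and C. The submitters' design text can be read as 3 lines of each genotype, whereas the methods describe cells of 1 mouse, and the sources used here do not say whether A, B and C were lines, cultures or days. The p-values therefore measure the spread between these libraries, which may be technical, and nothing places them in separate animals. The panel does not measure Pkn2, and these libraries therefore hold no check of its deletion.

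Libraries held between 1074095 and 1473153 reads. The deposited values are normalized counts, that is, each library's reads per gene divided by 1 factor for that library, and these factors ran from 0.731 to 1.48, highest in the B library of every group. Of 10 stellate cell and fibroblast markers, Col1a1, Sparc and Fn1 were among the highly counted genes, whereas Lum stayed below 10 normalized counts in every library and Dcn was low. None of the epithelial, endothelial, leukocyte and neural marker lists, each summed on its own, exceeded 33.9 normalized counts in any library. The 6 sheddase genes together took between 0.370% and 0.519% of a library's normalized counts. The number of reads per gene depends on how well its primers work in this assay. The tests therefore compared libraries and not genes, and the marker levels and the share above are only a rough description.

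The catalytic site is what makes an ADAM a candidate sheddase, and its coding sequence is shown here because it separates the members from part of the family. The zinc ion is held by 3 histidines, and the 33 bases that code for this site are given for the longest coding transcript of each member (GENCODE M21, build GRCm38), with the codons of the 3 histidines in capitals.
Adam10: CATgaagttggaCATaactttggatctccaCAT
Adam12: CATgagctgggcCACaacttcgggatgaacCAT
Adam15: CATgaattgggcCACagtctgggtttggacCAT
Adam17: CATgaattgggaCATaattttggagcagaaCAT
Adam19: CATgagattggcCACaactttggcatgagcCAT
Adam33: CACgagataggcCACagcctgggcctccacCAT
All 6 members encoded the site, over 2 exons beginning with exon 9 for Adam10, in exon 12 for Adam17 and in exon 11 for the other members. These coding stretches lie at chr9:70754296-70761585 on the plus strand for Adam10, where the window crosses an intron, at chr7:133961158-133961190 on the minus strand for Adam12 and at chr3:89344780-89344812 on the minus strand for Adam15. Those of Adam17, Adam19 and Adam33 lie at chr12:21336732-21336764 on the minus strand, chr11:46125050-46125082 on the plus strand and chr2:131055130-131055162 on the minus strand. Over the 33 bases, 16 were shared by all members, and the closest pair was Adam12 and Adam19, with 28 bases in common. Adam10 and Adam17 shared 26. Of the 15 other ADAM genes on the panel, 6 encoded the same arrangement (Adam8, Adam9, Adam20, Adam21, Adam28 and Adam30) and 9 did not, among them Adam23 and Adam32.

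The first question was how TGF-β1, the stimulus that drives stellate cells towards myofibroblasts, moved these genes. In WT PSCs, Adam12 rose about 6-fold and Adam19 about 2-fold, Adam33 fell to nearly no reads, and Adam10, Adam15 and Adam17 did not pass the test. PKN2 KO cells had the same 3 genes past the threshold in the same directions. The test was limma, run on log2(normalized count + 1), with the groups sharing 1 estimate of spread and p-values adjusted by Benjamini-Hochberg over 238 panel genes that had at least 10 normalized counts in at least 3 libraries. All 6 members passed that filter, Adam33 through its vehicle libraries alone. The threshold was an adjusted p of 0.05.

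**Figure D1:**
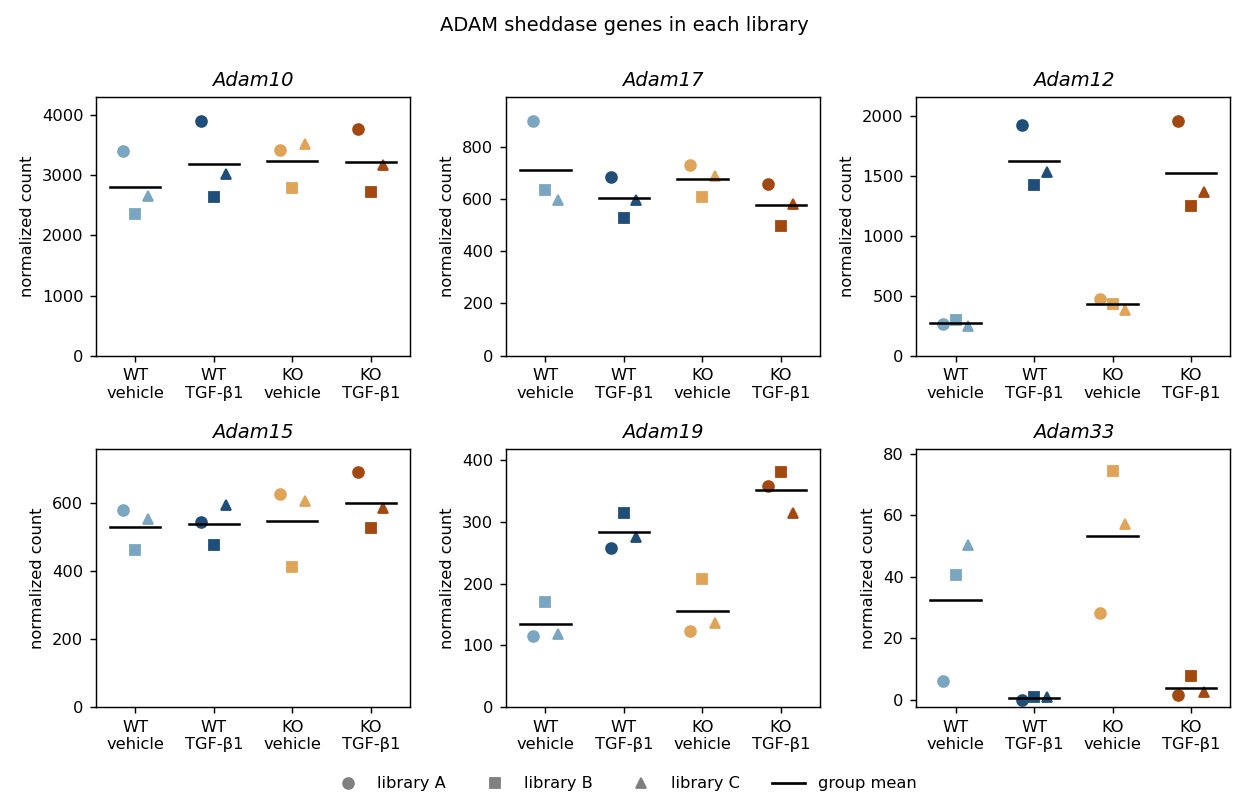
Normalized counts (y axes, each gene on its own scale) of the 6 ADAM sheddase genes in the 12 libraries, by genotype and treatment, with 1 point per library (circle A, square B, triangle C) and a line at each group mean. Adam12 and Adam19 sit higher after TGF-β1 in every library, Adam33 sits at 7.74 or below after TGF-β1, and Adam10, Adam15 and Adam17 overlap between groups.

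Adam12, whose protein cleaves membrane-bound growth factors of the EGF family and binds integrins, was the member that rose most. Its normalized counts in WT vehicle were 268, 295 and 250.4 in libraries A, B and C, against 1922, 1423 and 1531 after TGF-β1. In KO cells the vehicle libraries held 477, 433 and 380.5 and the TGF-β1 libraries 1961, 1251 and 1365. Every TGF-β1 library of either genotype was above every vehicle library. The mean went from 271 ± 22.6 to 1625 ± 263 in WT (SD, n = 3), a log2 fold change of 2.57 with a standard error of 0.19 (adjusted p = 3.8e-08, limma). In KO it went from 430.2 ± 48.3 to 1526 ± 382, a log2 fold change of 1.80 (adjusted p = 1.53e-06).

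Adam19, which codes for a protease known for processing neuregulins and for its part in heart development, rose less. WT vehicle libraries held 116, 171 and 118 normalized counts and WT TGF-β1 libraries 258, 315 and 276. KO vehicle libraries held 124, 207 and 137, and KO TGF-β1 libraries 358, 381 and 315. Again no vehicle library reached a TGF-β1 library, although the B libraries of both vehicle groups stood above their A and C libraries. The log2 fold change was 1.08 in WT (standard error 0.23, adjusted p = 0.000889, limma) and 1.20 in KO (adjusted p = 0.000494). With the libraries scaled to their total reads, the WT change was 0.83 and did not pass (adjusted p = 0.0718).

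Adam33, a protease gene of mesenchymal cells that is best known from genetic studies of asthma, moved the other way. WT vehicle libraries held 5.90, 40.5 and 50.3 normalized counts, and WT TGF-β1 libraries 0, 0.790 and 0.961. In KO cells the vehicle values were 28.1, 74.2 and 57.2 and the TGF-β1 values 1.37, 7.74 and 2.44. The TGF-β1 libraries lay below all vehicle libraries of their genotype, and the A library was the lowest of each group. limma gave a log2 fold change of -4.01 in WT (standard error 0.72, adjusted p = 0.00027) and -3.60 in KO (adjusted p = 0.000855), on a scale where the added count of 1 understates the change of so low a gene. No TGF-β1 library reached the 10 normalized counts of the filter, so Adam33 was tested only because it was high in vehicle, and that choice favours a fall.

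In reads, Adam33 had 116 over the WT vehicle libraries and 2 over the WT TGF-β1 libraries. After division by the library factors this was a ratio of 54.7, with a 95% interval from 14.8 to 457 that covers counting error only. The KO libraries had 183 and 12 reads, a ratio of 12.9 (7.20 to 25.4). Leukocyte markers fell along with it: their summed level ran from 16.3 to 33.9 normalized counts in vehicle and from 4.30 to 11.0 after TGF-β1, nearly all of it from Itgb2, with Itgal at 0 and Itgam at 1 read or fewer in every library. Among the stellate cell and fibroblast markers, Dcn fell too, with log2 fold changes of -3.24 in WT and -2.81 in KO. It was likewise tested only through vehicle libraries. Cdh11, Postn and Col5a1 of that list rose in WT (2.06, 0.96 and 0.65). The part of any of these marker changes in the fall of Adam33 was not tested.

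The other 3 members stayed close to their vehicle levels. Adam10 codes for a constitutive sheddase of cadherins, Notch receptors and CD44, and its normalized counts were 3401, 2359 and 2654 in WT vehicle and 3907, 2632 and 3021 in WT TGF-β1. KO cells held 3414, 2786 and 3527 in vehicle and 3777, 2717 and 3166 after TGF-β1. The ranges overlapped, and the log2 fold changes were 0.18 in WT (95% confidence interval -0.27 to 0.64) and -0.02 in KO (-0.47 to 0.44).

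Adam17, the gene of the TNF-α converting enzyme and the main inducible sheddase of EGF receptor ligands, had normalized counts of 900.4, 636 and 598 in WT vehicle and 686, 527 and 596 after TGF-β1. KO values were 731, 607 and 687 in vehicle and 659, 497 and 581 after TGF-β1. Most of the WT difference came from the single high vehicle library A, and all groups overlapped. Log2 fold changes were -0.22 in WT (-0.62 to 0.17) and -0.23 in KO (-0.62 to 0.17). Scaling to total reads moved both past the threshold, at -0.47 in WT (adjusted p = 0.0156, limma) and -0.42 in KO (adjusted p = 0.0282).

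Adam15, a broadly expressed member with an integrin-binding disintegrin domain, had 579, 461 and 554 normalized counts in WT vehicle and 546, 477 and 597 after TGF-β1. KO libraries held 628, 413 and 606 in vehicle and 692, 529 and 587 after TGF-β1. The groups overlapped throughout, with log2 fold changes of 0.02 in WT (-0.38 to 0.42) and 0.15 in KO (-0.25 to 0.55). These intervals do not show that the 3 genes were constant, since they reach up to 0.64 for Adam10 and 0.55 for Adam15 and down to -0.62 for Adam17.

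Many panel genes responded to TGF-β1, and the members' counts have to be read against that. In WT, 3 of 6 members passed, where 50.8% of the 238 tested genes did (23.9% higher and 26.9% lower). In KO, 3 of 6 passed against 48.7% (19.7% higher and 29% lower). Groups did not overlap for those same 3 members in each genotype, against 55.9% of tested genes in WT and 52.9% in KO. The members' median log2 fold change was 0.10 in WT and 0.07 in KO, beside 0.00 and -0.14 over all tested genes. The members' share of calls was thus close to that of the panel in both genotypes, and it includes Adam33, which the filter favoured.

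**Figure D2:**
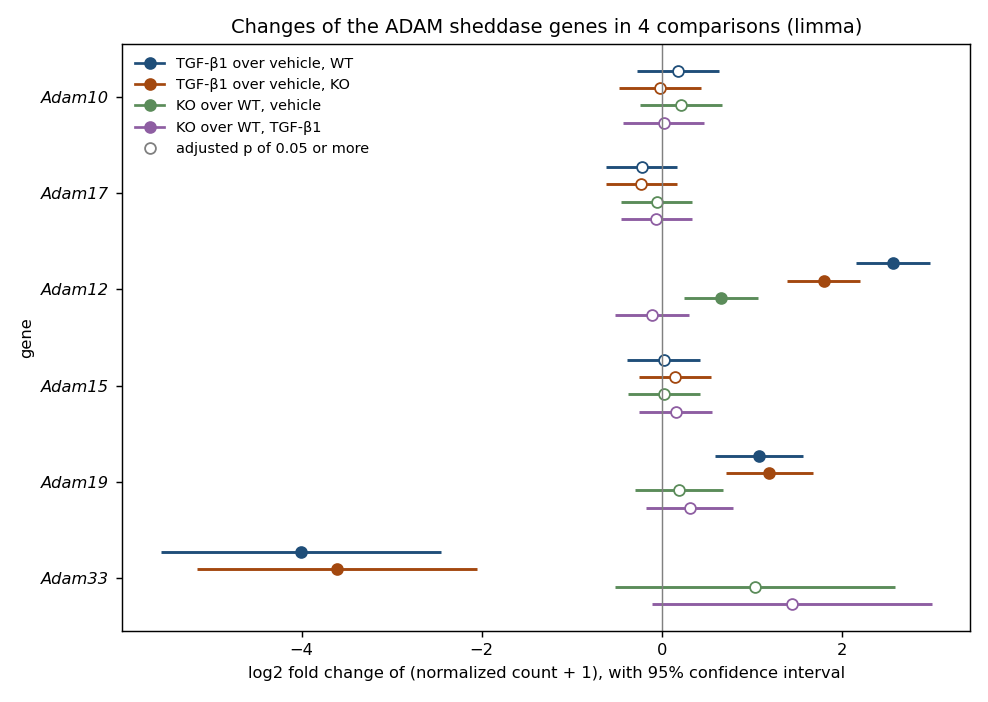
Log2 fold change of (normalized count + 1) on the x axis, with 95% confidence interval, for each ADAM sheddase gene in 4 comparisons, from limma over 12 libraries; filled points have an adjusted p under 0.05. Adam12 and Adam19 lie right of 0 and Adam33 left of 0 for TGF-β1 in both genotypes, and the only filled point between genotypes is Adam12 in vehicle, at 0.66.

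The second question was whether PKN2 loss changed the sheddase genes without added TGF-β1. In vehicle, Adam12 was higher in KO cells than in WT cells, by 1.59-fold between the group means, and none of the other 5 genes passed the test. All 3 KO vehicle libraries (477, 433 and 380.5 normalized counts) lay above all 3 WT vehicle libraries (268, 295 and 250.4). The log2 fold change was 0.66 with a standard error of 0.19 and a 95% confidence interval from 0.25 to 1.07 (adjusted p = 0.0311, limma). That is 1 of 6 members, where 13.9% of the tested genes were called (10.9% higher and 2.94% lower), and 1 of 6 with groups that did not overlap, against 32.4% of the tested genes.

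This call sat near the threshold. The split of all called genes also turned on the scaling, from 26 higher and 7 lower with the authors' factors to 20 and 13 with TMM and 19 and 20 with median-of-ratios factors. With the authors' factors the median log2 fold change of all tested genes in vehicle was 0.21, and with TMM or median-of-ratios factors it was 0.02 and -0.02. The Adam12 change was then 0.48 (adjusted p = 0.0532, limma) and 0.43 (adjusted p = 0.0766). Its distance from the median of the tested genes was 0.45 under all 3 of these scalings. A factor per library shifts all genes nearly alike, so that distance could hardly move and is no check of the call. Leaving out any single vehicle library other than WT vehicle B also took its adjusted p above 0.05, with log2 fold changes from 0.58 to 0.75 and adjusted p up to 0.131 over the libraries left out. Under edgeR's quasi-likelihood test and the DESeq2 Wald test on the reads, it held (adjusted p = 0.0361 and 0.0167). Both were run with the authors' factors in place of their own, so they are no check of the scaling.

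**Figure D3:**
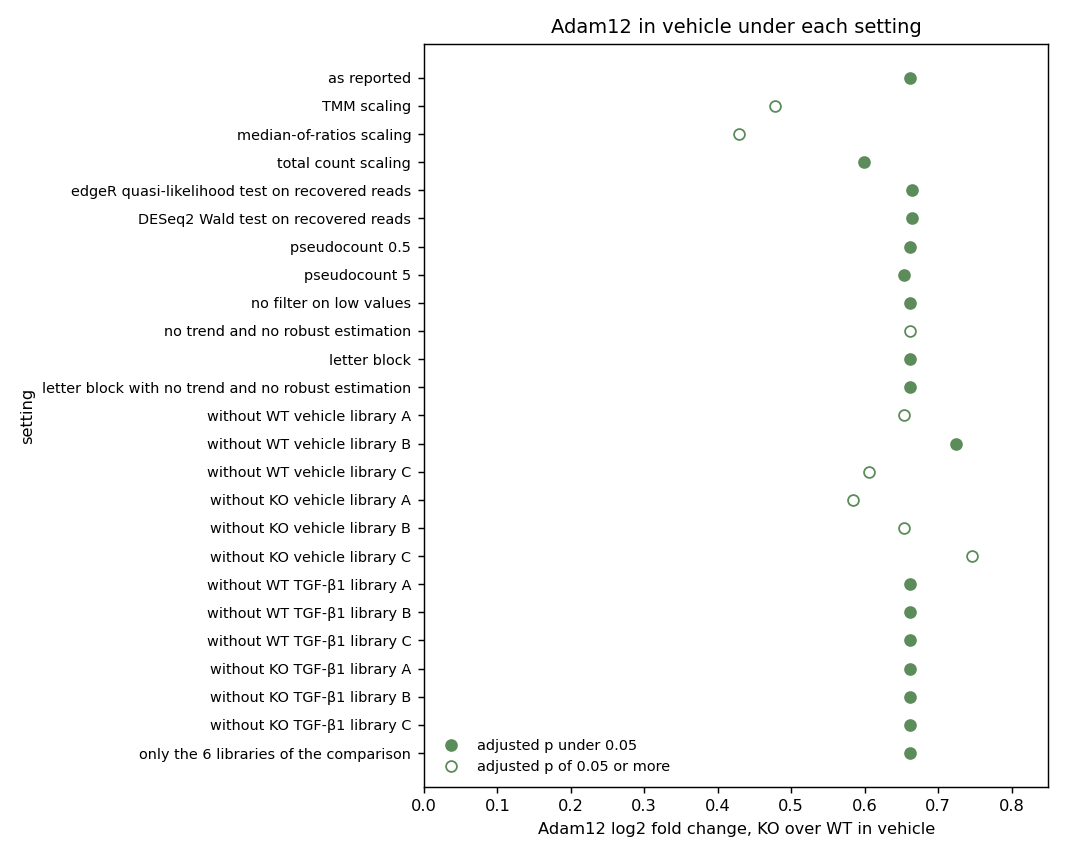
Log2 fold change of Adam12, KO over WT in vehicle (x axis), as reported and under each other setting tried (y axis); filled points have an adjusted p under 0.05. All points lie right of 0, between 0.43 and 0.75, and open points mark TMM scaling, median-of-ratios scaling, limma without trend and robust estimation, and 5 of the left-out vehicle libraries.

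For the other members the vehicle difference between genotypes was 0.22 on the log2 scale for Adam10 (95% confidence interval -0.24 to 0.67), 0.03 for Adam15 (-0.37 to 0.43), -0.06 for Adam17 (-0.45 to 0.34) and 0.19 for Adam19 (-0.29 to 0.68). Adam33 had a wider spread. Its KO vehicle mean of 53.2 ± 23.3 normalized counts stood beside a WT mean of 32.2 ± 23.3 (SD, n = 3), a log2 fold change of 1.04 with an interval from -0.52 to 2.59 (adjusted p = 0.419, limma). The low WT vehicle A library, with 5 reads, weighs on that value, which was 0.13 without it.

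After TGF-β1, no member differed between genotypes past the threshold in this fit, which took no account of the letters A, B and C. None had an unadjusted p under 0.05, which 68 of the 238 tested genes had. edgeR and DESeq2 on the reads also called none. The background was 15.1% of the tested genes (8.82% higher and 6.3% lower, or 27 and 29 genes with TMM factors against 21 and 15), and the members' median log2 fold change was 0.09 beside 0.13 over all tested genes. Adam12, higher in KO cells in vehicle, had means of 1625 ± 263 in WT and 1526 ± 382 in KO after TGF-β1, with a log2 fold change of -0.11 (-0.51 to 0.30). Adam19 was 0.31 higher in KO on the log2 scale (-0.17 to 0.80), without passing.

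Adam33 was the 1 member of 6 whose genotypes did not overlap after TGF-β1, where 28.2% of the tested genes did not. KO libraries held 1, 9 and 2 reads and WT libraries 0, 1 and 1. The ratio of KO to WT, after division by the library factors, was 6.97 with a 95% counting interval from 1.55 to 64.1. limma gave a log2 fold change of 1.45 with an interval from -0.11 to 3.00 and did not pass (adjusted p = 0.202). The KO TGF-β1 B library alone supplied 9 of the 12 reads.

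Whether the response to TGF-β1 itself differed between the genotypes was tested as an interaction of genotype and treatment, which uses the same 12 libraries as the comparisons above. No member passed when the letters were left out of the fit, against 3.36% of the tested genes. Adam12 alone of the 6 had an unadjusted p under 0.05, as did 23 of the 238 tested genes, and edgeR and DESeq2 also called no member. For Adam12 this interaction came to -0.77 in log2 units (standard error 0.27, 95% confidence interval -1.34 to -0.19, adjusted p = 0.229, limma), the gap between a rise of 2.57 in WT and one of 1.80 in KO. With each of the 12 libraries left out in turn, the interaction ran from -0.96 to -0.64, with adjusted p up to 0.587 (limma). It passed in 1 of these fits, without KO TGF-β1 A, the highest Adam12 library of its group (-0.96, adjusted p = 0.0322). Leaving out the highest KO TGF-β1 value by itself makes the interaction more negative. The interactions of the other members ran from -0.20 for Adam10 to 0.41 for Adam33, all with adjusted p of 0.888 or more.

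Across the 4 groups, Adam12 was therefore ordered WT vehicle, KO vehicle, then both TGF-β1 groups, which did not differ beyond their spread. The step between the vehicle groups rests on a call near the threshold, which TMM and median-of-ratios factors did not keep. Adam19 was ordered WT vehicle, KO vehicle, WT TGF-β1 and KO TGF-β1, where neighbours of the same treatment did not differ beyond their spread. For Adam33 the order ran from WT TGF-β1 through KO TGF-β1 and WT vehicle to KO vehicle, again with only the treatments apart by the test. Adam33 was tested only because it was high in vehicle, which favours that order. No order could be read for Adam10, Adam15 or Adam17.

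The members also differed in how libraries varied inside a group. Adam10 deviated from its group means on average by 0.23 on the log2 scale in the A libraries and by -0.23 in the B libraries, and Adam17 (0.22 and -0.17) and Adam15 (0.15 and -0.23) did likewise. Adam19 went the other way, at -0.15 in A and 0.27 in B, as did Adam33 at -1.01 and 0.66. The B libraries also had the largest library factors, so the letter moved with the scaling, and its part in these deviations was not tested.

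The panel genes most like each member over the 12 libraries give a further description of these patterns, with Pearson's r of log2(normalized count + 1) over libraries that share groups and scaling. Adam12 ran closest to Itga5 (r = 0.99), Edil3 (0.98) and Col5a3 (0.97), and Adam19 to Adamts12 (0.96), Adamts7 (0.92) and Itga2 (0.91). The nearest to Adam33 were Mmp11 (0.95), Adamtsl5 (0.91) and Lamb2 (0.91). Adam10 was nearest to Fn1 (0.95), Fbln2 (0.91) and Col1a1 (0.91), Adam15 to Mmp2 (0.87), Col1a2 (0.87) and Bgn (0.85), and Adam17 to Nptn (0.88), Gpc4 (0.86) and Itga9 (0.83). Among the members themselves, Adam12 and Adam19 had r = 0.90, and Adam12 and Adam33 had r = -0.85.

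Start regions were looked up in RefSeq for motifs of the SMAD and TEAD transcription factors. Of the 6 members, 4 had an entry in that table (Adam10, Adam15, Adam17 and Adam19), and Adam12 and Adam33 did not. The windows are 300 bases long, from 250 bases before to 50 bases after the start. The letters searched, on both strands, were CAGAC (or GTCTG), the SMAD box, and GGAATG (or CATTCC), the TEAD motif, which share no letters in the hits below. Adam19, which rose with TGF-β1, and Adam15, which did not pass, are printed side by side with those letters in capitals.
Adam19 start region: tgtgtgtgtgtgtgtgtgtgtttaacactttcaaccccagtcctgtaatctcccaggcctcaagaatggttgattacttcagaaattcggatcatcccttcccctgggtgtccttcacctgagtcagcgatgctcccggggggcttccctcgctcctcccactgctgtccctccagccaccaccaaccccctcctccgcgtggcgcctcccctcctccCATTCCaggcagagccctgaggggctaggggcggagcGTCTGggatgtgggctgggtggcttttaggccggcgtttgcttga
Adam15 start region: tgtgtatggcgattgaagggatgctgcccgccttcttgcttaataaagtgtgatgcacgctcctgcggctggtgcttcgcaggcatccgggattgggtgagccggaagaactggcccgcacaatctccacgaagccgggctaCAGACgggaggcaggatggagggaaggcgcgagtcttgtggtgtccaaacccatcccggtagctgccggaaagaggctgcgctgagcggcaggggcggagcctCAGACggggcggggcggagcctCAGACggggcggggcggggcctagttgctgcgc
These windows are chr11:46055734-46056033 on the plus strand and chr3:89349979-89350278 on the minus strand of GRCm38.p6, each printed 5′ to 3′. The Adam19 window, the one of its 3 entries that holds the GENCODE start of the gene, had 1 SMAD box and 1 TEAD motif. Adam15 had 3 SMAD boxes and no TEAD motif, and Adam10 and Adam17 had neither. Over all 32851 start regions in the table, 49.6% held a SMAD box and 14.7% a TEAD motif. Letters of this kind occurred in a window whose gene did not pass as well as in one whose gene rose, and say nothing of binding.

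Among the other ADAM genes, 5 of 15 passed the filter on low values and 5 had no read in any library (Adam2, Adam7, Adam28, Adam29 and Adamdec1). Counts of called genes in this list and those below stand beside the shares over all tested genes. These lists were chosen with earlier results of these data known, so their counts and medians are a description and not a test. With TGF-β1 these were 50.8% in WT and 48.7% in KO. Between genotypes they were 13.9% in vehicle and 15.1% after TGF-β1. Adam23, which lacks the zinc site and acts in cell adhesion, was the 1 gene of the 5 tested that was called in any comparison. It fell with TGF-β1 from 4.72, 10.1 and 4.93 normalized counts to 2.36, 0.790 and 0 in WT, a log2 fold change of -1.99 (adjusted p = 0.0118, limma). In KO it fell from 11.7, 5.65 and 15.9 to 5.47, 1.72 and 1.22 (log2 fold change -1.73, adjusted p = 0.0286). These are few reads, at most 15 in a library, and only 3 vehicle libraries reached 10 normalized counts, so Adam23 too was tested only because it was high in vehicle, which favours a fall.

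Adam9, a widely expressed relative with the zinc site, went from 3147 ± 826 to 2058 ± 605 normalized counts in WT (log2 fold change -0.62, adjusted p = 0.0696, limma) and from 3278 ± 563 to 2173 ± 596 in KO (-0.61, adjusted p = 0.0793), without passing. The inflammatory cell protease gene Adam8 had means between 45.3 and 70.7 in the 4 groups, Adam21 between 10.4 and 17.4 and Adam32 between 7.22 and 15.9, and none of them passed. The list's median change with TGF-β1 was -0.24 in WT and -0.61 in KO, beside 0.00 and -0.14 over all tested genes.

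TIMPs are the tissue inhibitors of metalloproteinases, and TIMP3 in particular inhibits ADAM17 and other ADAMs. Of 4 on the panel 3 were tested, and with TGF-β1 Timp2 fell in WT while Timp2 and Timp3 fell in KO. Timp2 went from 12479.5 ± 2626 to 4359 ± 1002 normalized counts in WT (log2 fold change -1.52, adjusted p = 0.000169, limma) and from 11973 ± 2351 to 5397 ± 1468 in KO (-1.17, adjusted p = 0.0018). Timp3 went from 2591 ± 419 to 1603 ± 319.9 in KO (-0.70, adjusted p = 0.0145) and from 2794 ± 403 to 2076 ± 377 in WT, where it did not pass (-0.43, adjusted p = 0.112). Timp1 had log2 fold changes of 0.29 in WT and 0.17 in KO and did not pass. The difference between genotypes in the Timp3 response was -0.27 with an adjusted p of 0.847. No TIMP gene passed between genotypes in either treatment, and none had an unadjusted p under 0.05 there.

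Tetraspanins are membrane organizers, and CD9 is known to associate with ADAM10 and ADAM17. Cd9 fell with TGF-β1 from 9126 ± 821 to 5285 ± 489 normalized counts in WT (log2 fold change -0.79, adjusted p = 0.00636, limma) and from 7733 ± 1179.7 to 5250.1 ± 1276 in KO (-0.58, adjusted p = 0.0382). Cd151 did not pass, at -0.25 and -0.33. Neither passed between genotypes, nor had an unadjusted p under 0.05 there.

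Adhesion molecules whose outer parts are known to be shed by ADAM10 or ADAM17 were listed as 16 genes, of which 7 passed the filter. RNA of these targets says nothing of cleavage, which was not measured. With TGF-β1 in WT, 4 rose and 1 fell, and in KO 3 rose and 1 fell, with list medians of 0.68 and 0.24. Over all tested genes, 50.8% passed in WT and 48.7% in KO, with medians of 0.00 and -0.14. Alcam, an adhesion molecule of the immunoglobulin family, went from 499.6 ± 81.5 to 3311 ± 384 normalized counts in WT (log2 fold change 2.73, adjusted p = 1.15e-08, limma) and Vcam1, the vascular cell adhesion molecule, from 940.3 ± 143 to 47.8 ± 10.9 (-4.28, adjusted p = 6.83e-09). In KO their log2 fold changes were 2.92 and -4.40.

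Ncam1, the neural cell adhesion molecule, rose by 2.32 in WT and 2.07 in KO, and Cd44, the hyaluronan receptor, by 0.98 and 0.92, all on the log2 scale. L1cam, a cell adhesion molecule first known from neurons, rose with TGF-β1 in WT (0.68, adjusted p = 0.0116, limma) and not past the threshold in KO (0.24, adjusted p = 0.376), and the difference between those responses did not pass (-0.43, adjusted p = 0.607). In vehicle, L1cam was the 1 gene of this list higher in KO, with 1764, 1176 and 1594 normalized counts against 1005, 709 and 743 in WT (0.88, adjusted p = 0.00912). After TGF-β1, Cdh2, or N-cadherin, was the 1 gene lower in KO, with 1212, 819 and 1156 against 2019, 1386 and 1959 (-0.75, adjusted p = 0.026). Cdh2 leaned the same way in vehicle without passing (-0.48, adjusted p = 0.171, limma). Its interaction of genotype and treatment did not pass (-0.27, adjusted p = 0.834). Pcdhgc3 did not pass in any comparison, and it shares its constant exons with the other protocadherin gamma genes, so its reads may be split among them.

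Integrin chains that bind ADAM disintegrin domains were listed as 6 genes, of which 5 were tested and Itga4 had no read. With TGF-β1, 4 rose in WT (Itga5, Itgav, Itgb1 and Itgb3), and in KO 3 rose (Itga5, Itgb1 and Itgb3) and Itga9 fell. Itga9 was likewise tested only through vehicle libraries, and its log2 fold changes were -1.32 in WT (adjusted p = 0.108, limma) and -1.77 in KO (adjusted p = 0.0362), a difference between genotypes that did not pass (adjusted p = 0.954). Itgav changed by 0.83 in WT and 0.40 in KO (adjusted p = 0.0301 and 0.312, limma), and that difference did not pass either (adjusted p = 0.796). The list medians were 1.19 and 1.08, beside 0.00 and -0.14 over all tested genes, of which 50.8% passed in WT and 48.7% in KO. As the list was chosen with earlier results known, this contrast only describes the chosen genes. Itga5, which codes for the fibronectin receptor chain and ran closest to Adam12, went from 2985 ± 237 to 12799 ± 1590.3 normalized counts in WT (log2 fold change 2.10, adjusted p = 4.47e-07, limma) and from 3543 ± 191 to 13072 ± 2981 in KO (1.86). Itgb3 rose by 3.50 in WT and 2.53 in KO on the log2 scale.

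In vehicle, Itgb3 was the 1 integrin chain of this list higher in KO, as Adam12 was among the sheddases. Its libraries held 83.2, 82.7 and 122 normalized counts in KO and 70.8, 29.1 and 28.6 in WT (log2 fold change 1.25, adjusted p = 0.0378, limma). TMM scaling, median-of-ratios scaling and the edgeR test did not keep this call. After TGF-β1 no integrin chain of the list passed between genotypes, and none had an unadjusted p under 0.05. For all 5 lists in every comparison, edgeR and DESeq2, with the authors' factors, called as many genes as limma, other than the loss of Itgb3 in vehicle by edgeR.

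**Figure D4:**
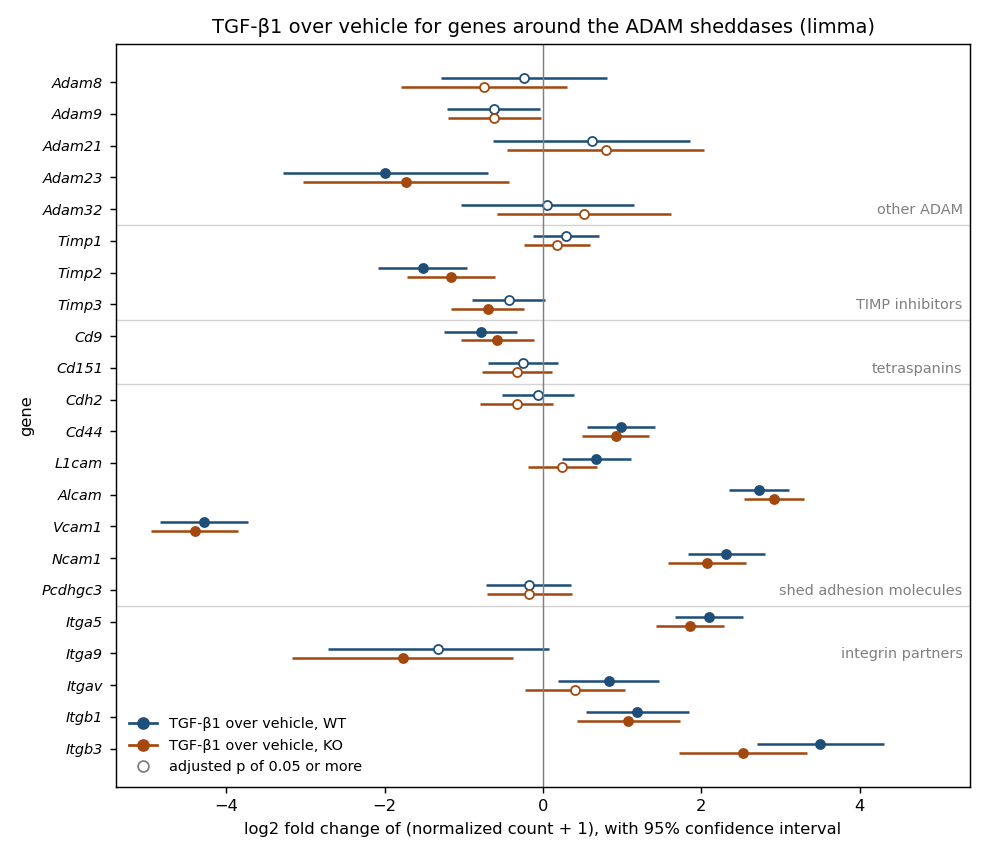
Log2 fold change of (normalized count + 1) with TGF-β1 on the x axis, with 95% confidence interval, in WT and KO cells for the tested genes of 5 lists around the ADAM sheddases, from limma; filled points have an adjusted p under 0.05. Adam23 is the filled gene of the other ADAM list, Timp2 and Cd9 lie left of 0 in both genotypes, Alcam and Ncam1 lie right of 2, and Vcam1 lies near -4.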

How the data were processed

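RNA of 12 libraries was measured with a QIAseq targeted panel, in which chosen transcripts are amplified and sequenced. The authors deposited raw counts and normalized counts for 420 genes, by Ensembl identifier. Per the submitters' processing notes and methods, STAR, mm10 and DESeq2 1.32 were used, counts came from the kit maker's pipeline, and normalization was to reference genes. The normalized values, a signal deposited as counts divided by 1 factor per library, were used for all 12 libraries. Multiplied back, 5040 of 5040 values came out whole within 0.01. In the 6 uniquely named raw columns, those of WT vehicle and KO TGF-β1, 2520 of 2520 were equal to the raw counts. 6 raw columns carry the KO vehicle names more than once, and no raw column is named for WT TGF-β1. Those 6 were not used, so the KO vehicle and WT TGF-β1 libraries were not compared with raw counts.

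Genes with at least 10 normalized counts in at least 3 libraries (238) were tested with limma 3.58.1 in R 4.3.3 (trend and robust) on log2(value + 1) with 4 group means and Benjamini-Hochberg adjustment. Alternatives were TMM, median-of-ratios and total count scaling, and edgeR 4.0.16 and DESeq2 1.42.0 on the recovered reads. Both of these tools were given the authors' factors in place of their own. Further alternatives were pseudocounts of 0.5 and 5, no filter, no trend, separate fits, the replicate letter as a block, and each library left out. All members were named, as were list genes that were called (of the other ADAM genes, those tested), and for each member the 3 genes with the highest Pearson's r. Members and lists were chosen with earlier results of these data known. Coordinates are from GENCODE M21 (GRCm38) and start regions from RefSeq (GRCm38.p6). Total reads limit precision, and counting intervals cover counting error only.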

Additional observations from a re-analysis of the deposited data

How the results depend on the processing

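No change of a called member turned direction under any alternative. The rises of Adam12 with TGF-β1 passed under all 12 alternatives and with each library left out, and those of Adam19 passed under all but total count scaling in WT. The falls of Adam33, which the filter favoured, passed wherever they could be fitted, as with only the 6 WT libraries it did not pass the filter. The number of members called in vehicle was 1, and 0 with TMM scaling, with median-of-ratios scaling and with limma without trend and robust estimation. Left-out libraries gave 0 to 1 in vehicle, 0 to 0 after TGF-β1, 3 to 3 for TGF-β1 in WT and in KO, and 0 to 1 for the interaction. Scaling to total reads moved the median of the tested genes to -0.25 in WT and -0.34 in KO with TGF-β1. Relative to that median Adam17 was at -0.22 and -0.08, a distance that a factor per library can hardly move. It also moved the split of called genes with TGF-β1 in WT to 54 higher and 96 lower, from 57 and 64. Over all tested genes after TGF-β1, 65 were called with total count scaling and 56 with TMM scaling, against 36 with the authors' factors. Interactions went from 8 to 4 without trend and robust estimation. Of 295 counts of the surrounding lists, 51 moved, by 3 genes at most.

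The letters A, B and C were checked as a replicate block. Deviations from group means correlated by 0.39 on average over 18 pairs of libraries with the same letter, from -0.23 to 0.70. Of these pairs, 13 were above 0.1, and those below it were all C pairs. All pairs were above 0.1 for 1 of 6 pairs of groups, so the letters were not taken as a pairing. The main fit therefore does not remove variation that the A or B libraries shared. With the block, 1 member was called after TGF-β1 (Adam33, adjusted p = 0.00959, limma) and 1 for the interaction (Adam12, adjusted p = 0.000217). That fit had infinite prior degrees of freedom for 197 of 238 genes. With the block and no trend, 1 member was called after TGF-β1 (Adam33, adjusted p = 0.0278) and Adam12 did not pass for the interaction (adjusted p = 0.0559). Over all tested genes, the block called 87 in vehicle, 101 after TGF-β1 and 42 for the interaction, against 33, 36 and 8 without it, and with no trend as well 73, 91 and 20.

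Depth limits Adam33 most, with 313 reads over all 12 libraries, and the lists' lowest genes in the same way.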
